A study of Homo sapiens with 9 samples.

Results

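The boundary peaks of DHX34 are the crosslinking peaks of this helicase whose called extent covers the junction of an exon and the neighbouring intron of a protein-coding gene. A peak was a member when it lay wholly inside a protein-coding gene and had at least 1 nt in an exon and 1 nt in the adjoining intron of the same annotated transcript. Of 2261 peaks in the list, 1915 lay wholly inside a protein-coding gene, 566 of these touched an exon, and 310 crossed a boundary. The members were 16.2% of the peaks inside protein-coding genes and 54.8% of those that touched an exon.

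The peaks came from seCLIP (single-end enhanced crosslinking and immunoprecipitation), in which UV light joins a protein to the RNA it touches before the protein is pulled down and the joined RNA is sequenced. All samples were HEK293T, an immortalised line from human embryonic kidney. Anti-GFP beads were used on 1 CRISPR clone with a GFP and FLAG tag on its own DHX34 gene, which gave 5 libraries. The parental line, which has no tag, gave 4 control libraries titled NEG GFP INPUT. The methods name both pull-downs from untagged cells and inputs, and the titles do not settle which these are. If they are inputs, tag and pull-down differ together between the groups. All cells were irradiated, and no other treatment is given. The only deposited table used here is a list of pooled peaks with their positions and 1 whole number each. It holds no strand, no read count and no value per library, so the depth behind each peak is unknown, the spread between libraries cannot be given, and no control value can be set beside a peak. Strand was therefore taken from the host gene, and intervals below are 95% Wilson intervals that describe variation over peaks or exons, which are not replicates.

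An intron is removed from a pre-mRNA between a 5' splice site, where the upstream exon ends and the intron begins, usually with GT in the gene, and a 3' splice site, where the intron ends, usually with AG. The 5' splice site is first paired with U1 snRNA and later with U6 snRNA, and the spliceosome is remodelled between these states by RNA helicases of the DExD/H-box family. DHX34 belongs to this family and is known for its part in nonsense-mediated decay (NMD), which degrades mRNAs with an early stop codon.

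The 4 members with the highest whole numbers in the list lay in TNRC6A (value 4), NCL, SFPQ and CLASRP (value 3 each). The sequences of the peaks in TNRC6A, NCL and SFPQ are shown first as examples of how such peaks lie: mainly intronic in TNRC6A, evenly split in NCL, and over a whole short intron in SFPQ. Exonic bases are in capitals and intronic bases in lower case, 5' to 3' in the direction of the gene, on GRCh38.
NCL exon 2, chr2:231463112-231463281, minus strand: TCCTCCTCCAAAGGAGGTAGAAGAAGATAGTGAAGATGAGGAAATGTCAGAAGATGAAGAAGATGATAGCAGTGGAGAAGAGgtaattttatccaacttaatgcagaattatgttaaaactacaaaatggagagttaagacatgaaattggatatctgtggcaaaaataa
SFPQ exon 9, chr1:35186990-35187247, minus strand: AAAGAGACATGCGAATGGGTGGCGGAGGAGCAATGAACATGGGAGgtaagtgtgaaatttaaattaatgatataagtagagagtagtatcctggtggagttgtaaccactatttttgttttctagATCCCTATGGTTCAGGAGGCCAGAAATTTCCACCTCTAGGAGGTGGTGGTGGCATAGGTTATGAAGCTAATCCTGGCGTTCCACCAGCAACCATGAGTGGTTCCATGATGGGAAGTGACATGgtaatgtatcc
TNRC6A exon 1, chr16:24729846-24729961, plus strand: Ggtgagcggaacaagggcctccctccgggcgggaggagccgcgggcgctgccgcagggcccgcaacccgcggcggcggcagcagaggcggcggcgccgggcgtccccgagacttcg
The NCL peak, in the gene of nucleolin, held 82 nt of exon 2 and 88 nt of intron 2. The SFPQ peak, in the gene of a DBHS-family splicing factor, held the last 45 nt of exon 8, all 80 nt of intron 8, all 122 nt of exon 9 and 11 nt of intron 9. In TNRC6A, which encodes a partner of Argonaute in miRNA silencing, 1 nt was exonic and 115 nt were intronic. The TNRC6A peak was the richest in G and C of the 3, at 81.0%, against 34.7% for NCL and 44.2% for SFPQ, with a median of 55.4% over all members.

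The 5' splice sites at the extremes of sequence strength are shown next, because the members included both near-perfect and very poor sites. The score is the log2 odds of a weight matrix over the last 3 exonic and first 6 intronic bases, built from 181454 introns of MANE Select transcripts (1 agreed transcript per gene). Those 9 bases are in capitals within 10 exonic and 20 intronic bases. The highest scores were 12.84 for DEK and LYAR and 12.11 for ARHGDIA and BRD2.
DEK exon 3, chr6:18258284-18258313, minus strand: attgcacAAGGTAAGTttattctagcttcc
LYAR exon 7, chr4:4274347-4274376, minus strand: cactcggAAGGTAAGTggctagctcacgct
ARHGDIA exon 2, chr17:81869721-81869750, minus strand: gtttccgCAGGTGAGTctgggctgcgggag
BRD2 exon 8, chr6:32977561-32977590, plus strand: aaagctaCAGGTGAGTggaaaggttggagt
The lowest scores were -9.96 for SMAD3, -2.14 for PBX3 and 1.09 for CYB5D2. The sites of SMAD3 and BRD9 (4.56) began with GC in place of GT. CLASRP (3.93), an SR-related protein gene with a value of 3, and LUC7L2 (4.58), the gene of a U1 snRNP-associated protein, are given with them.
SMAD3 exon 1, chr15:67174575-67174604, plus strand: gaggggaGGGGCTGCAgtcagtcagcagtg
PBX3 exon 1, chr9:125748419-125748448, plus strand: acttcccACGGTTCAAaagggccttccaga
CYB5D2 exon 2, chr17:4151013-4151042, plus strand: atcgaaaCAGGTCTAActtggaagaattct
BRD9 exon 3, chr5:891135-891164, minus strand: acacagcCAGGCAAGGgtgcacttttagag
CLASRP exon 7, chr19:45057889-45057918, plus strand: cccgacaTCGGTGGGGtcccctctctgccc
LUC7L2 exon 9, chr7:139417720-139417749, plus strand: ccaagagGAGGTATTGatgtgtcaatcaga
The SMAD3 and CYB5D2 sites belong to transcripts without a coding sequence, and the PBX3 site to a 5' UTR exon. The BRD9, CLASRP and LUC7L2 sites lie at the ends of coding exons.

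The 310 members fell in 270 host genes. Of these 269 were on chromosomes 1 to 22 and X and were not read-through genes, which is 1.39% of 19320 such protein-coding genes. A MANE Select transcript described 285 members (91.9%), and the other members crossed a boundary of another transcript only. The rule used all annotated transcripts, so exons of rarely used transcripts count like others.

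A 5' splice site alone was crossed by 213 members (68.7%), a 3' splice site alone by 52 (16.8%), and both kinds by 45 (14.5%). Among the members that crossed 1 kind, 80.4% (213 of 265, 75.2 to 84.7%) crossed a 5' splice site. With peaks of at most 110 nt alone this share was 68.3% (95 of 139). Median width was 115 nt for 5' splice site peaks, 103 nt for 3' splice site peaks and 258 nt for peaks that crossed both. At most 110 nt wide were 44.6% of the 5' splice site peaks and 84.6% of the 3' splice site peaks. The members as a whole had a median width of 111 nt, against 104 nt for the 256 exonic peaks that crossed no boundary.

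At 5' splice sites, over peaks of all widths, the reach into the intron was more uniform than the reach into the exon. In a narrow peak both parts are tied by its width, and no split by width is given. For the 217 members that crossed exactly 1 site, a 5' splice site, in the transcript used to describe them, the intronic part had a median of 49 nt, with quartiles of 36 and 69 nt. The exonic part had a median of 76 nt, with quartiles of 45 and 109 nt. The base 50 nt into the intron was still covered by 49.8% of these peaks, and the base 100 nt into it by 9.22%. On the exon side the corresponding shares were 71.9% at 50 nt and 31.3% at 100 nt. For the 53 members with 1 crossed 3' splice site the intronic median was 65 nt and the exonic median 44 nt. Reads were extended to a set length before peak calling. The part of that step in these lengths, in membership and in the split between 5' and 3' splice sites was not tested.

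**Figure D1:**
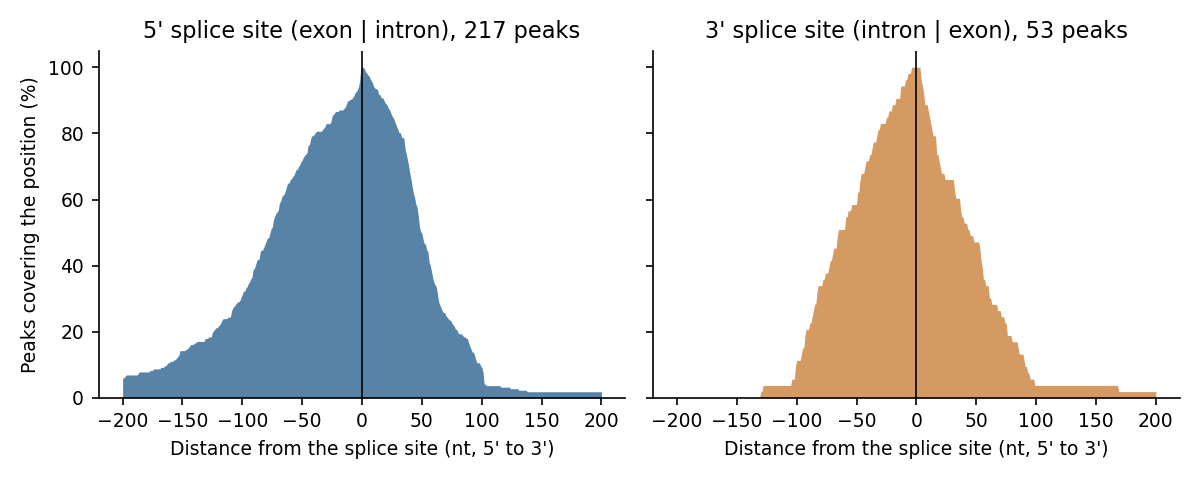
Share of peaks (%) that cover each base around the crossed splice site, against distance in nt in the direction of the gene, for the 217 peaks that crossed only a 5' splice site (left) and the 53 that crossed only a 3' splice site (right) in the transcript described. Coverage falls to 49.8% at 50 nt into the intron at 5' splice sites, while 71.9% of the peaks cover the base 50 nt into the exon.

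Some peaks reached the exon by only a few bases. Of the 217, 15 had 1 to 3 exonic nt and 4 had 1 to 3 intronic nt. Those with 1 to 3 exonic nt included SF3A3, METTL25B, OGDHL, SPPL3, ABCC1, TNRC6A, ZNF236, ATR, PGM2, TRIO, TUBB, RBM28 and NSDHL. Those with 1 to 3 intronic nt lay in ARF3, NDUFB10, STX8 and TCF20. At 3' splice sites PCNX1 and RNF19A had 3 exonic nt each. On the other side of the rule, 7 peaks abutted a boundary without crossing it. They lay in the introns of ANP32E, ARMH3, DKC1, MARK3, PRRC2B and TCP11L2, where they began at the 5' splice site, and in an exon of SPTBN1 at a 3' splice site.

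Beside that of TNRC6A, 6 sites at which a peak began with exactly 1 exonic base are printed because their peaks are almost wholly intronic and share a start. The 9 scored bases are in capitals.
ABCC1 exon 6, chr16:16033161-16033190, plus strand: ggatcacAGGGTAAGGccaggccccccaga
METTL25B exon 3, chr1:156732464-156732493, plus strand: gctgggaGAGGTGAGGagatggctggagca
OGDHL exon 12, chr10:49745324-49745353, minus strand: ggagtttGAGGTGGGCaggcaggctgcagg
TRIO exon 37, chr5:14465631-14465660, plus strand: aagcaagATGGTGAGGcctcccagagaaag
TUBB exon 2, chr6:30722636-30722665, plus strand: gaagccaCAGGTAAGGgcaggagcccgggc
ZNF236 exon 30, chr18:76960846-76960875, plus strand: agctatgCTGGTGAGAatgctgcacccggg
Among all 15 sites with 1 to 3 exonic nt, 7 had G and 2 had T as the sixth intronic base. Over the 279 distinct 5' splice sites that members crossed, 26.9% had G and 34.4% had T there, and over all MANE Select introns 19.0% and 48.3%. The sequence GTAAGT, which pairs fully with this stretch of U1 snRNA, was at 0 of the 15 sites, for which the upper bound is 20.4%. These 15 were chosen for the position of their edge, and their sequences were read afterwards, so the counts carry no test.

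Of the host genes, 242 had 1 boundary peak, 22 had 2 and 6 had 3 or more. The 6 genes held 24 members. MYH9, the heavy chain of non-muscle myosin IIA, had 6, EIF3A, the largest subunit of translation initiation factor eIF3, had 5, and SMARCA4, the ATPase of the BAF chromatin remodeller, had 4. MYH10 (non-muscle myosin IIB), LYAR (a nucleolar protein) and SMC1A (a cohesin subunit) had 3 each. All 24 crossed a 5' splice site, 4 of them also a 3' splice site. Most members did so in any case, since 16.8% of all 310 crossed a 3' splice site alone.

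In MYH9 (chromosome 22, minus strand) the peaks lay at exons 23, 24, 28, 31, 33 and 38 of 41. Their intronic parts were 41, 57, 46, 7, 503 and 4 nt in that order. The widest, at chr22:36288207-36289263, was 1057 nt long and was the widest member of all. In EIF3A (chromosome 10, minus strand) the peaks lay at exons 12, 16, 17, 19 and 21 of 22, with intronic parts of 47, 36, 55, 35 and 55 nt. The exonic parts of these EIF3A peaks were 206, 109, 152, 754 and 131 nt, so they varied widely while the intronic parts stayed within 35 to 55 nt.

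In SMARCA4 (chromosome 19, plus strand) the peaks lay at exons 10, 14, 29 and 30 of 35, with intronic parts of 21, 41, 75 and 60 nt. In MYH10 the exons were 20, 27 and 42 of 43, with intronic parts of 42, 18 and 28 nt. The LYAR peaks at exons 7 and 8 had 58 and 62 intronic nt, whereas the peak at its exon 1 had 6 exonic and 95 intronic nt. The SMC1A peaks at exons 6 and 9 were 531 and 456 nt wide and crossed both kinds of site, and that at exon 15 was 141 nt wide.

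**Figure D2:**
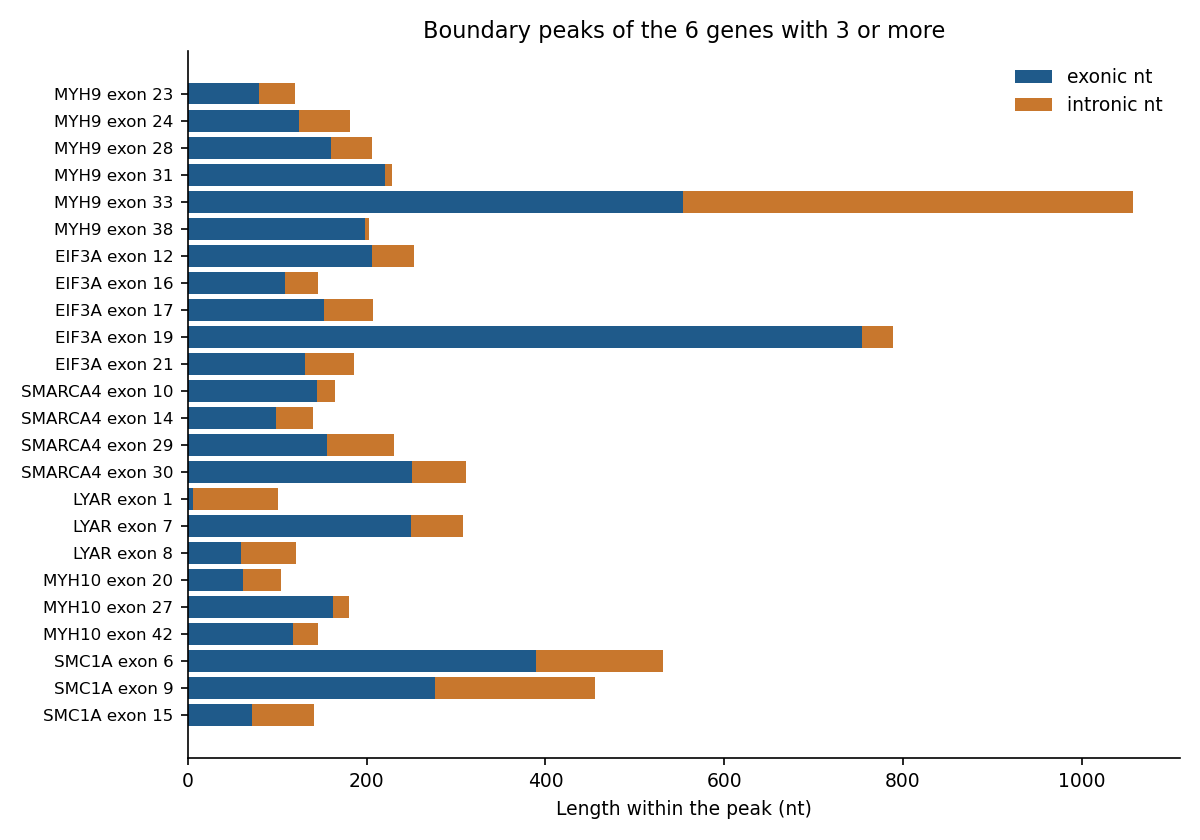
Exonic (blue) and intronic (orange) length in nt of each of the 24 boundary peaks in the 6 genes with 3 or more, labelled by the exon with the described boundary. The intronic parts of the 5 EIF3A peaks lie between 35 and 55 nt, and the MYH9 peak at exon 33 is 1057 nt wide.

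The 22 genes with 2 members were CANX, CLASRP, EEF2, GGA2, GOLIM4, HDLBP, INCENP, LUC7L3, METTL25B, MTHFD1L, MYO6, NCAPG2, NOM1, NUCKS1, PNISR, POLE, PRC1, PRPF8, SMARCC1, TCF25, TPM2 and ZNF276. In 8 of them the peaks lay at neighbouring exons. The 68 members in genes with several had a median width of 148 nt, against 105 nt for the others. The widest members after that of MYH9 were in EEF2 (966 nt, the gene of translation elongation factor 2), BRD2 (922 nt, a bromodomain protein), FAM50A (832 nt) and EIF3A (789 nt). A whole exon lay inside 39 members and a whole intron inside 21.

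Host genes were set beside 8 lists of genes, written with earlier results of these data known, by counts only. Splicing factors and regulators had 18 hosts among 197 genes (9.14%, 5.86 to 14.0%) with 21 peaks, against the 1.39% of all protein-coding genes. Chromatin and transcription regulators had 13 of 87 (14.9%), actin, myosin, tubulin and motor genes 8 of 67 (11.9%), and nucleolar and other RNA-binding proteins 8 of 74 (10.8%). Translation factors had 4 of 64 (6.25%). RNA helicases had 1 of 72 (1.39%), NMD and exon junction complex genes 1 of 36 (2.78%), and cytosolic ribosomal protein genes 0 of 79, for which the upper bound is 4.64%. A peak of any kind lay in 26 of 197 splicing, 30 of 87 chromatin and 12 of 67 cytoskeletal genes. It lay in 18 of 74 nucleolar and RNA-binding genes and 9 of 64 translation factor genes. For helicases it was 6 of 72, for NMD and exon junction complex genes 7 of 36, and for ribosomal proteins 5 of 79. Over all protein-coding genes, peaks lay in the 270 hosts and in 1319 genes without a boundary peak, beside 19320 genes counted. The 1.39% is thus not the base for these counts of peaks of any kind. Whether the shares are particular to boundary peaks was not tested. Expression is not in the list, and gene length differed: host genes had a median of 44.5 kb, against 26.9 kb for all protein-coding genes and 97.8 kb for the 1319 genes whose peaks crossed no boundary. Median lengths of the lists ran from 5.33 kb for ribosomal proteins to 84.3 kb for chromatin genes. The part of either in these shares was not tested.

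**Figure D3:**
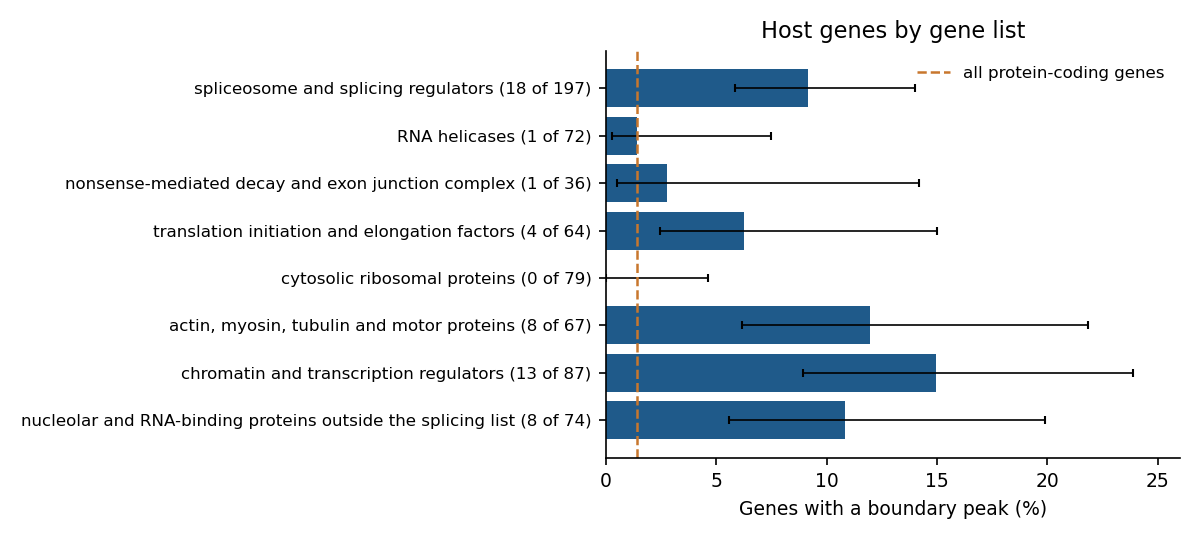
Share of the annotated genes of each list that host a boundary peak (%), with 95% Wilson intervals over genes as bars and the hosts and list sizes in parentheses. The dashed line marks the 1.39% of all protein-coding genes. The lists were written with earlier results known, and chromatin regulators (14.9%) and ribosomal proteins (0 of 79) are the ends of the range.

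The splicing hosts included, among spliceosome components, PRPF8 and PRPF6 of the U5 and tri-snRNP, PRPF4B, a kinase of the spliceosome, SF1, the branch point binding protein, and SF3A3, a U2 snRNP subunit. Among U1-associated proteins they included LUC7L2 and LUC7L3. The regulators included SRSF1, CLK2, a kinase of SR proteins, CLASRP, RBM5, HNRNPUL1, PNN, SRRT, PSPC1 and SFPQ. All 21 peaks crossed a 5' splice site, and none crossed a 3' splice site alone, against 16.8% of all members. Their intronic part had a median of 51 nt, with a range of 29 to 271 nt.

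PRPF8, the core protein of the catalytic spliceosome, had a 241 nt peak at exon 37, which held 194 exonic and 47 intronic nt, and a 148 nt peak at exon 20 with 43 intronic nt. LUC7L3 had 50 and 38 intronic nt at exons 8 and 9. LUC7L2 had a 183 nt peak (chr7:139417576-139417758, plus strand) with 154 nt of exon 9 of 10 and 29 nt of intron 9. In SF3A3 only 3 nt of exon 1 were covered, against 101 nt of intron 1. In SRSF1 and SRRT the peaks were 480 and 545 nt wide and covered 200 and 271 intronic nt. DHX34 and SF3B1 had no boundary peak.

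The counts by list below stand beside the 16.8% of all members that crossed a 3' splice site alone. Among translation factors, EEF2, EIF3A, EIF3B and EIF4G2 had 9 peaks, all across a 5' splice site. The cytoskeletal hosts other than the myosins MYH9, MYH10 and MYO6 were CALD1, DYNC1H1, IQGAP1, KTN1 and TUBB, and all 16 peaks of the list crossed a 5' splice site. MYO6 had 15 intronic nt in each of its peaks, at exons 12 and 28. The chromatin hosts included BRD2, DNMT1, DNMT3A, EP400, KDM5C, POLR2A, SETD1A, SMARCA4, SMARCC1, SMC1A, SSRP1 and STAG1, and 17 of 19 peaks crossed a 5' splice site. The exceptions were DNMT3A, a DNA methyltransferase, with 16 exonic and 86 intronic nt at the 3' splice site of exon 21, and KDM5C, a histone demethylase, with 75 exonic and 30 intronic nt at exon 23. The nucleolar and other RNA-binding hosts included FMR1, NCL, RBM26, RBM6, RRBP1, THOC1 and TNRC6A. DDX17 was the only helicase host, with 218 exonic and 66 intronic nt at exon 12, and CNOT1, a deadenylase scaffold, was the only host on the NMD and exon junction complex list.

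The crossed exon was internal for 267 members (86.1%), the first exon for 35 (11.3%, 8.23 to 15.3%) and the last for 8 (2.58%). With MANE Select transcripts alone the share of first exons was 7.72%. Exonic peaks that crossed no boundary were placed differently, with 49 of 256 in internal exons (19.1%), 60 in first exons, 135 in last exons and 12 in genes with a transcript of 1 exon. The exons they touched had a median length of 1552 nt, against 139 nt for the members. The rule requires a peak to reach an end of an exon, and the part of exon length in this difference in place was not tested.

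The transcripts described had a median of 15 exons, against 8 for all MANE Select transcripts. Along the transcript, 86 of 267 crossed internal exons lay in the first of 3 equal parts of the exon order (32.2%), 69 in the middle part (25.8%) and 112 in the last (42.0%, 36.2 to 47.9%). The other internal exons of the same transcripts had 33.7%, 31.6% and 34.7% there.

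Crossed internal exons had a median length of 136 nt, with quartiles of 101 and 183 nt. The 3962 other internal exons of the same transcripts had a median of 124 nt, with quartiles of 90 and 164 nt, and all MANE Select internal exons 123 nt. Exons over 200 nt made up 17.2% of the crossed exons (13.2 to 22.2%) and 12.3% of the others. The shortest were those of MXRA8 (24 nt), GTPBP2 (27 nt) and YY1AP1 and FAM216A (41 nt each). The longest were those of RRBP1 (1933 nt), BAHCC1 (1181 nt) and PELP1 (1032 nt). Among peaks of at most 110 nt the median length was 119.5 nt, against 123 nt for the other exons. Where a peak crossed several exons, the exon it covered most was taken, and the rest were not counted among the other exons. This choice can favour longer exons in wide peaks, and its part in these lengths was not tested. No test of length is given, since exon length enters the chance that a peak reaches a boundary.

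Exons were then divided by their use in the annotated transcripts of the gene. A constitutive exon was in every transcript that spanned it, a cassette exon was skipped by at least 1, and a variable exon was never skipped but had another end in some. Of the 267 crossed internal exons, 136 were constitutive (50.9%), 79 variable (29.6%) and 52 cassette exons (19.5%, 15.2 to 24.6%). Of the other internal exons of the same transcripts, 56.5% were constitutive and 27.0% variable. Cassette exons were 16.5% (654 of 3962) of the other internal exons of the same transcripts and 19.5% of all MANE Select internal exons, the same share as among the crossed ones. The difference from the same transcripts was not past the threshold (odds ratio of 1.22, by a two-sided Fisher's exact test with p = 0.204 and an adjusted p = 0.255). All adjusted values are Benjamini-Hochberg over the 5 tests of a setting, with a threshold of 0.05. No adjustment was made across settings. For members of at most 110 nt the difference was past the threshold, with 24.6% (31 of 126) against 14.8%. The two-sided Fisher's exact test there gave p = 0.00495 and an adjusted p = 0.0247. By transcripts of the protein-coding type alone, crossed exons were 74.9% constitutive (69.4 to 79.7%), 11.2% variable and 13.9% cassette. The others of the same transcripts were then 83.0%, 6.59% and 10.4%. The constitutive and variable shares were not tested.

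**Figure D4:**
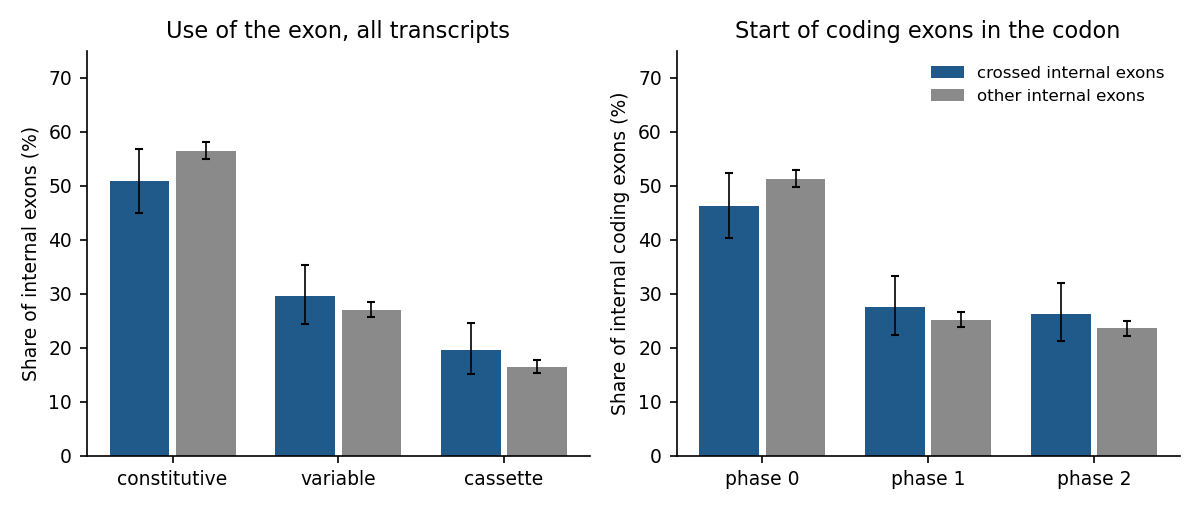
Shares of crossed internal exons (blue) and of the other internal exons of the same transcripts (grey) by use in annotated transcripts (left, %) and, for coding exons, by the codon position at which the exon starts (right, %), with 95% Wilson intervals over exons as bars. The shares of cassette exons are 19.5% and 16.5%, and those of exons that start between codons (phase 0) are 46.3% and 51.3%.

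Of the 52 cassette exons, 32 were skipped by 1 annotated transcript alone, 37 by a transcript of the protein-coding type and 16 by a transcript annotated as an NMD target. The matching counts for other cassette exons are not given, so these do not set the crossed ones apart. Wholly coding cassette exons, 44 in all, were found in genes that included APLP2, CANX, CCDC159, CD40, CDC123, CEP164, CHAF1A, CLN6, D2HGDH, DEK, DNAI1, DNMT1, DNMT3A, GGA2, GOLGA3, HDLBP, HNRNPUL1, KIF15, KRI1, METAP2, MRNIP, MTMR8, NDRG1, NDRG4, PAFAH1B1, PCNX1, PGAP3, PHLDB2, RAD51D, SCAMP4, SFXN2, SKP2, SLC25A17, SMARCA4, SMC1A, SPATS2, SPG7, STX8, UHRF1, VPS4B and ZNF710, with a pair of them in GGA2 and in HDLBP. In 8 cassette exons the transcripts that skipped the exon outnumbered those that held it. In coding exons these were SFXN2 (1 held, 2 skipped), CLN6 (6 held, 8 skipped), NDRG4 (7 held, 32 skipped) and RAD51D (10 held, 13 skipped). In exons outside the coding sequence they were CYB5D2 (1 and 4), CACTIN (1 and 3), NCAPG2 (1 and 6) and GPRASP2 (1 and 2). RAD51D encodes a protein of homologous recombination, and CLN6 a protein of the endoplasmic reticulum. A count of annotated transcripts is not a measure of inclusion in these cells.

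The crossed exon was wholly coding in 256 members (82.6%), held coding sequence and UTR in 28, lay in a 5' UTR in 14 and in a 3' UTR in 2, and belonged to a transcript without coding sequence in 10. Among exonic peaks that crossed no boundary, 36 of 256 (14.1%) touched a wholly coding exon. The rule ties membership to the ends of exons, and the part of exon place and length in this contrast was not tested. Whether skipping of an exon keeps the reading frame depends on a length divisible by 3. This held for 118 of 255 crossed internal coding exons (46.3%, 40.3 to 52.4%), for 1573 of 3797 others of the same transcripts (41.4%) and for 40.8% of all MANE Select internal coding exons. The difference from the same transcripts was not past the threshold (odds ratio of 1.22, by a two-sided Fisher's exact test with p = 0.132 and an adjusted p = 0.255). Of the 44 coding cassette exons, 20 (45.5%) had a length divisible by 3, against 63 of 135 crossed coding constitutive exons (46.7%). The share was 42.4% for coding cassette exons among the others of the same transcripts. It was 44.2% for all MANE Select internal coding cassette exons.

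Exons that start between codons (phase 0) were 118 of 255 crossed coding exons (46.3%), against 51.3% of the others. Those that start after the first base of a codon were 70 and those after the second base were 67. The exons that both start and end between codons were 27.1% of the crossed and 27.9% of the others.

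Splice site strength was compared within transcripts. The 279 distinct 5' splice sites crossed had a median score of 7.97, with quartiles of 6.46 and 9.44, against 8.27 for the other sites of the same transcripts and 8.26 for all MANE Select sites. In transcripts with at least 3 introns, 119 of 272 crossed sites (43.8%, 38.0 to 49.7%) scored above the median of the other sites of their transcript. The exact two-sided sign test gave p = 0.0452 and adjusted p = 0.226, so the difference was not past the threshold after adjustment. With at least 10 nt required on each side of the boundary it was 98 of 237 (41.4%, exact sign test, p = 0.00923, adjusted p = 0.0461). For peaks of at most 110 nt it was an even 51 of 102 (exact sign test, p = 1). The call thus depended on which peaks were taken.

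**Figure D5:**
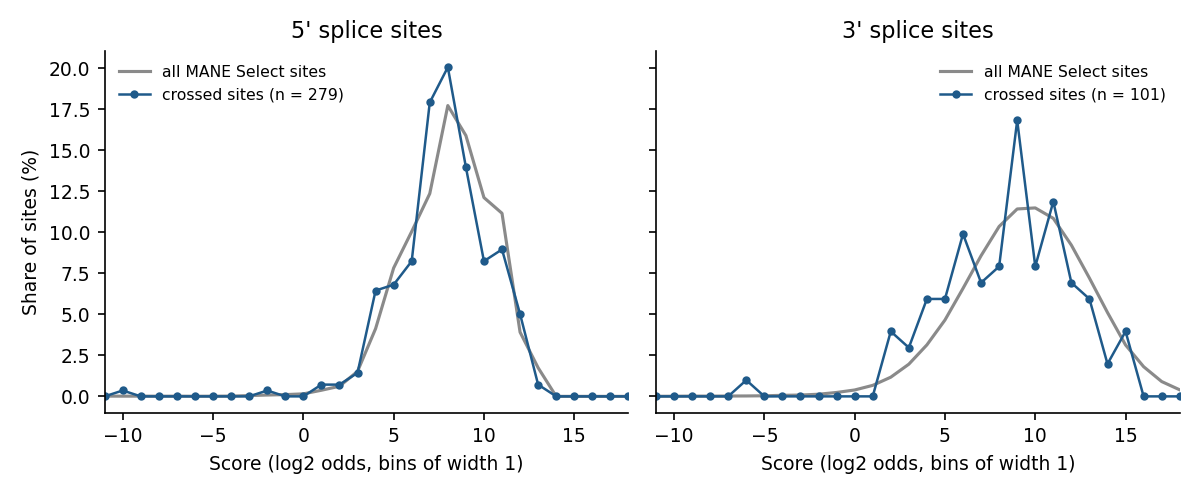
Share of splice sites (%) by score (log2 odds, bins of width 1) for the sites crossed by members (blue) and all MANE Select sites (grey), for 279 crossed 5' splice sites (left) and 101 crossed 3' splice sites (right). The median scores are 7.97 against 8.26 at 5' splice sites and 8.92 against 9.54 at 3' splice sites.

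The sequence GTAAGT began 21 of the 279 crossed introns (7.53%, 4.98 to 11.2%), read on the strand of the gene. It began 12.6% of the other introns of the same transcripts and 13.9% of all MANE Select introns. GC in place of GT began 2, those of SMAD3 and BRD9. The run GGG was present within the first 50 intronic nt, on the strand of the gene, in 178 of 279 crossed introns (63.8%, 58.0 to 69.2%), in 53.9% of the others and in 51.9% of all. The mean content of G in that window was 31.2%, against 28.5% in the others, and that of G and C together 53.1% against 49.3%. These windows lie partly inside the peaks, and the base composition of the peaks was not held fixed.

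The 101 crossed 3' splice sites all ended in AG. Their median score, over 20 intronic and 3 exonic bases, was 8.92, against 9.28 for the other sites of the same transcripts and 9.54 for all. Above the median of their transcript were 44 of 97 (45.4%, exact two-sided sign test, p = 0.417, adjusted p = 0.417). The run GGG was found within the last 50 intronic nt of 46 of 101 introns (45.5%, 36.2 to 55.2%), of 29.7% of the other introns and of 28.3% of all MANE Select introns. The mean content of G in that window was 22.51%, against 19.05% in the others, and that of G and C together 49.8% against 43.87%. Here too the windows lie partly inside the peaks, and base composition was not held fixed. The introns upstream of these sites had a median length of 656 nt, against 1217 nt for the others, and 58.4% against 44.3% were shorter than 1 kb. A whole intron lay inside 21 members. Such introns count among the crossed sites and can be no longer than their peak. Their part in this difference in length was not tested. The introns behind crossed 5' splice sites had a median of 1217 nt, against 1204 nt for the others.

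An intron that lies wholly in an exon of another annotated transcript is a retained intron of the annotation. This held for 33 of the 279 introns at crossed 5' splice sites (11.8%, 8.55 to 16.2%) and for 8.40% of the others of the same transcripts. At 3' splice sites it held for 13 of 101 (12.9%, 7.68 to 20.8%) and 8.52%. No test of these shares was made.

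The whole number in the fourth column of the list, whose meaning the authors do not state, was 1 for 295 members, 2 for 11, 3 for 3 and 4 for 1. A value of 2 or more was thus held by 15 of 310 (4.84%, 2.95 to 7.83%), by 6 of 256 exonic peaks that crossed no boundary (2.34%) and by 2.3% of all peaks. The difference between members and the other exonic peaks was not past the threshold (odds ratio of 2.12, by a two-sided Fisher's exact test with p = 0.179 and an adjusted p = 0.255). The members with a value of 2 lay in DYNC1H1, VPS35L, GGA2, KIF22, KLHDC4, PELP1, ARHGDIA, UHRF1, AFDN, CALD1 and TPM2. All 15 crossed a 5' splice site, and those of SFPQ and TPM2 also crossed a 3' splice site. Of all members, 16.8% crossed a 3' splice site alone. Values of 2 or more moved with width, at 12 of 159 members over 110 nt (7.55%) and 3 of 151 narrower ones (1.99%), and also at 6 of 72 and 0 of 184 of the other exonic peaks. The part of width in the difference was not tested.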

How the data were processed

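seCLIP was carried out with 5 libraries of tagged and 4 of untagged HEK293T cells, grouped by their labels. Per the methods, the authors trimmed reads with cutadapt, handled molecular identifiers with UMI-tools, aligned to GRCh38 with bowtie2, which does not split reads over introns, and removed duplicates, multiply mapped reads and reads over transposable elements. MACS2 was run per replicate and on merged libraries against merged controls, with reads extended to a set length, and calls past a limit on significance were joined. The study then selected a smaller set by read support and by reads in the peak against its surroundings. Per the methods, only a minority of the selected peaks had such read support in more than a single replicate. That selection is not applied here, so all counts describe the larger list. The members can thus include peaks that the study left out. Upstream versions are not given in the sources used here. The deposited list was taken to be the joined calls before that selection, and the last of its 4 columns was treated as a score that the authors deposited without a stated meaning. The list gives no reads per peak, so the depth behind each is unknown and no library can be left out.

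Peaks, with starts counted from 1, were compared with GENCODE release 44 on GRCh38. Where several protein-coding genes held a peak, read-through genes came last, then the lowest gene identifier was taken. Boundaries came from all transcripts. Each member was described in its MANE Select transcript where that was crossed. Its exon was the crossed exon that the peak covered most. Weight matrices used introns of at least 50 nt, a pseudocount of 1 and a base background of 0.25. Fisher's exact tests, exact sign tests and Wilson intervals used scipy 1.17.1 and Benjamini-Hochberg adjustment statsmodels 0.14.6, with Python 3.11.15, pysam 0.24.0 and numpy 2.4.6. The functions were tested on simulated data.

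The members, gene lists and tests were chosen with earlier results of these data known. Named were members with a value of 2 or more, genes with 2 or more members, the 5 widest, hosts on a list, the 3 highest and lowest 5' splice sites and those not GT or AG, the 3 shortest and longest internal exons, coding cassette exons, peaks within 3 nt of a boundary, and DHX34, LUC7L2, SF3B1, TNRC6A, SFPQ, CLASRP, NCL, MYH9 and EIF3A. Peaks that end at a boundary without crossing it, BRD9 beside its neighbours and exceptions within a list are named in addition. Some members that the rule names are not reported here. Alternatives were any containing gene, MANE Select transcripts alone, 10 nt on each side, peaks of at most 110 nt, 1 peak per gene, peaks over opposite-strand genes left out, other transcript sets and other splice site scores or medians.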

Additional observations from a re-analysis of the deposited data

How the results depend on the processing

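Of 55 values under alternatives, 50 kept their side of the adjusted threshold or, without a test, moved by less than their interval or spread. With peaks of at most 110 nt, however, 2 of these lost or turned the direction of their comparison: 50% of crossed 5' splice sites scored above the median of their transcript, against 43.8%, and the median exon length was 119.5 nt, below the 123 nt of the other exons. The other 5 values came from 3 settings. Each adjusted value covers the 5 tests of its own setting, with no adjustment across settings. With MANE Select transcripts alone the share of first exons was 7.72%, against 11.3%, since members that cross a boundary of another transcript only drop out. With at least 10 nt on each side, 41.4% of crossed 5' splice sites scored above the median of their transcript, which passed the threshold (exact sign test, adjusted p = 0.0461); the cause was not tested. With peaks of at most 110 nt there were 151 members by construction, the 5' splice site share of peaks that crossed 1 kind of site was 68.3%, and the cassette share was 24.6%, past the threshold (Fisher's exact test, adjusted p = 0.0247); the cause was not tested. Over the alternatives the cassette share ranged from 10.1% to 24.6% and the share of 5' splice sites above the median from 41.4% to 50%. The cassette range spans different definitions. The 10.1% came from calls with basic transcripts alone, where the other exons had 7.19%, and the 24.6% stood against 14.8%. The 20 members that overlap a gene on the opposite strand (6.45%) have a strand that the list cannot settle. No paired analysis was possible because the list holds no value per library, although the labels share replicate numbers, and for the same reason no replicate could be left out.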
